A study of Mus musculus with 15 samples.

Results

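Newly formed oligodendrocytes are cells that have left the precursor state and have begun, but not completed, the programme of myelination. The 10 genes described here, Bcas1, Enpp6, Tmem163, Fyn, Itpr2, Gpr17, Sirt2, Cnksr3, Rras2 and Tns3, are used as markers or regulators of that passage, and all 10 were matched by symbol among the 45706 genes of the tables. Oligodendrocyte precursor cells (OPCs) divide until they are committed to differentiate, then switch on a transient set of genes, extend actin-rich processes, and later express the major myelin proteins. Serum response factor (SRF) is a transcription factor that binds a DNA element named the CArG box and controls many genes of the actin cytoskeleton together with its cofactors.

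The study asked what loss of SRF does to transcription in the oligodendrocyte lineage, in primary OPCs immunopanned from the brains of mice with floxed Srf alleles on both chromosomes. All 4 groups carried the floxed alleles, and the groups differed in virus and stage. The control OPCs (4 libraries) received an adeno-associated virus encoding eGFP and a deleted, inactive Cre, and the SRF-KO OPCs (3 libraries) received the matching virus with active Cre. Both were infected on day 3 of culture and frozen 48 h after infection. The control OLs (4 libraries) received a lentivirus encoding GFP and the SRF-KO OLs (4 libraries) a lentivirus encoding Cre and GFP on day 6. The OL cultures were then moved to differentiation medium and frozen on day 3 of differentiation. The adeno-associated viruses used a CMV promoter. No group received Cre without floxed alleles, so an effect of Cre itself and the loss of SRF cannot be told apart. The labels do not say which cultures or animals the replicates came from, and the p-values below therefore measure the spread between these libraries, which may be technical.

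Srf itself was read first as a check of the labels. Its levels in the 4 control OPC libraries were 7.91, 5.57, 9.67 and 8.34 normalised CPM (gene counts as a rate of library size, after trimmed-mean scaling within the stage). The 3 SRF-KO OPC libraries had 0.221, 0.196 and 0.215 CPM, or 2.68% of the control mean. In the OL cultures the controls had 7.91, 8.79, 9.34 and 7.13 CPM and the SRF-KO OLs 3.05, 2.71, 2.06 and 4.34 CPM, or 36.7% of the control mean. Srf fell in both stages by edgeR's quasi-likelihood test, by 5.16 log2 units in OPCs (SE 0.40, adjusted p = 5.69e-04) and by 1.45 in OLs (SE 0.22, adjusted p = 0.022). The OL call was lost in 6 of the 8 fits that each left out 1 library (highest adjusted p = 0.10). Srf lies within the transcript Gm26904 on the opposite strand, which had 0 CPM in every OPC library, 12.9 to 17.6 CPM in control OLs and 11.2 to 13.8 CPM in SRF-KO OLs. Without strand, reads of the pair cannot be told apart where they overlap, so the Srf level in OLs is uncertain to that extent.

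Totals of expected counts ran from 8964310 to 16026511 in OPC libraries and from 4303739 to 13139258 in OL libraries. SRF-KO OL replicate 4 stood apart: it lay at -80.5 on the first principal component of the OL libraries (40.5% of variance), with the other 7 between -0.45 and 18.8, and it had the highest mitochondrial share, 14.2% against 9.08 to 11.6%. In the OPC libraries SRF-KO OPC replicate 2 lay at -47.6 on the first component (27.3% of variance), with the others between -6.01 and 23.0. Counts and calls of the 10 genes that change without either library are given with and without it. The OPC tables list lengths of spliced transcripts and the OL tables lengths that include introns. Among 8995 single-transcript genes with introns, the listed length equalled the spliced length for 89.8% in OPC tables. In OL tables it equalled the genomic span for 90.0%. Of the 10 genes only Gpr17 has 1 annotated transcript. For others the listed OL length can lie far under the span (Bcas1, 10585 of 80855 bases). Stage, virus, day of infection and way of counting therefore cannot be told apart between OPCs and OLs, while both groups of a stage were counted in the same way.

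The promoter sequences are shown because the perturbed factor binds a known element. RefSeq (GRCm38.p6) held a promoter window of 250 bases before to 50 after the start for 8 of the 10 genes, all but Bcas1 and Gpr17. The CArG box was searched by its name's usual form, a pair of C, 6 bases of A or T, then a pair of G, which reads alike on both strands. Among the 8, the Tmem163 window alone held one, and 1.63% of the 32851 RefSeq mouse windows held at least 1. The Tmem163 element lay 217 to 208 bases before the start, at chr1:127678229-127678238. That RefSeq start lies inside the gene as GENCODE annotates it. The Srf promoter, which holds 2 CArG boxes, is given for comparison. Both runs are the 250 bases upstream of the start, on the minus strand, 5′ to 3′, with the CArG boxes in capitals.
Tmem163, chr1:127678022-127678271: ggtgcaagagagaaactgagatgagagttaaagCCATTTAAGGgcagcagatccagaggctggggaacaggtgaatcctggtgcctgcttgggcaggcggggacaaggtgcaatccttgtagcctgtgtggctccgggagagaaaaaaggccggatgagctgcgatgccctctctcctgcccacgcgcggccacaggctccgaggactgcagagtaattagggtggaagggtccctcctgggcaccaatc
Srf, chr17:46556163-46556412: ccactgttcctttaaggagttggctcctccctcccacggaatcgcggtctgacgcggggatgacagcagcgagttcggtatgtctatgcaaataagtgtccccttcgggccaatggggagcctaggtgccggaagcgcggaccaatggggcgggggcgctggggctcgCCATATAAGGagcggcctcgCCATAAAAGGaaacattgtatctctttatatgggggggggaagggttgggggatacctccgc
A match is a description of the letters in the window and not evidence of binding, and binding was not measured here.

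In OPC cultures the 10 genes spanned a wide range of levels. On the authors' TPM scale, which divides by spliced transcript length in the OPC tables, Fyn was highest at 169 ± 28 TPM (SD, n = 4 control OPC libraries), followed by Sirt2 at 114 ± 12 and Bcas1 at 84.6 ± 2.4. The ranges of these 3 did not overlap. Rras2 followed at 12.7 ± 2.3 TPM. Itpr2 (5.79 ± 1.65), Gpr17 (5.41 ± 0.70) and Cnksr3 (4.42 ± 1.22) had overlapping ranges, and Tns3 (2.05 ± 0.72) overlapped with Cnksr3. Tmem163 stood at 0.585 ± 0.193 TPM, and Enpp6 at 0.13 ± 0.18 was at the edge of detection.

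In control OL cultures TPM are per listed length with introns included. The order was led by Sirt2 at 450 ± 75 TPM (SD, n = 4) and Bcas1 at 368 ± 17, whose ranges did not overlap. Gpr17 followed at 96.4 ± 17.7 TPM and Fyn at 12.4 ± 2.1. Tmem163 (6.58 ± 1.20), Enpp6 (6.45 ± 1.68) and Cnksr3 (6.35 ± 1.80) did not differ beyond their spread, nor did Rras2 (2.01 ± 0.44) and Itpr2 (1.78 ± 0.62). Tns3 was lowest at 0.715 ± 0.282 TPM. The listed lengths include introns here and not in the OPC tables, so the order is not comparable with that of the OPC cultures.

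Across stages CPM were scaled over the 8 control libraries together, as in the fit, and so differ slightly from the values scaled within a stage that are given elsewhere. Each of the 10 genes was higher in control OLs than in control OPCs by edgeR's quasi-likelihood test (adjusted p = 0.0026 or lower), against 42.5% of all 15027 genes tested that were called higher. Their median difference was 3.74 log2 units, against 0.10 over all genes tested, and the control OL libraries of all 10 lay above every control OPC library, against 40.0% of all genes. Gpr17, a G protein-coupled receptor expressed transiently in committed precursors, is the gene whose listed length differs least between the tables (6640 against 5195 bases). Gpr17 had 17.5, 20.6, 16.5 and 14.4 CPM in control OPCs and 410.9, 285.8, 271.9 and 269.8 CPM in control OLs, a difference of 4.16 log2 units (SE 0.17). For the other 9 genes the listed OL length was 3.86 to 58.1 times the OPC length. Enpp6, a choline-specific phosphodiesterase that marks newly formed oligodendrocytes, had 4, 0, 1 and 0 counts in control OPCs and none in the 3 SRF-KO OPCs, where 3 counts pooled over the group would be 0.0898 CPM. The control OLs had 351.4, 324.4, 297.3 and 341.6 CPM of Enpp6. Fyn differed least, with 318.1, 248.9, 324.4 and 336.9 CPM in control OPCs and 488.8, 396.7, 422.3 and 383.9 CPM in control OLs. The Fyn log2 difference was 0.46 (SE 0.12), and it was not called when libraries were scaled to their totals (0.11, adjusted p = 0.40).

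**Figure D1:**
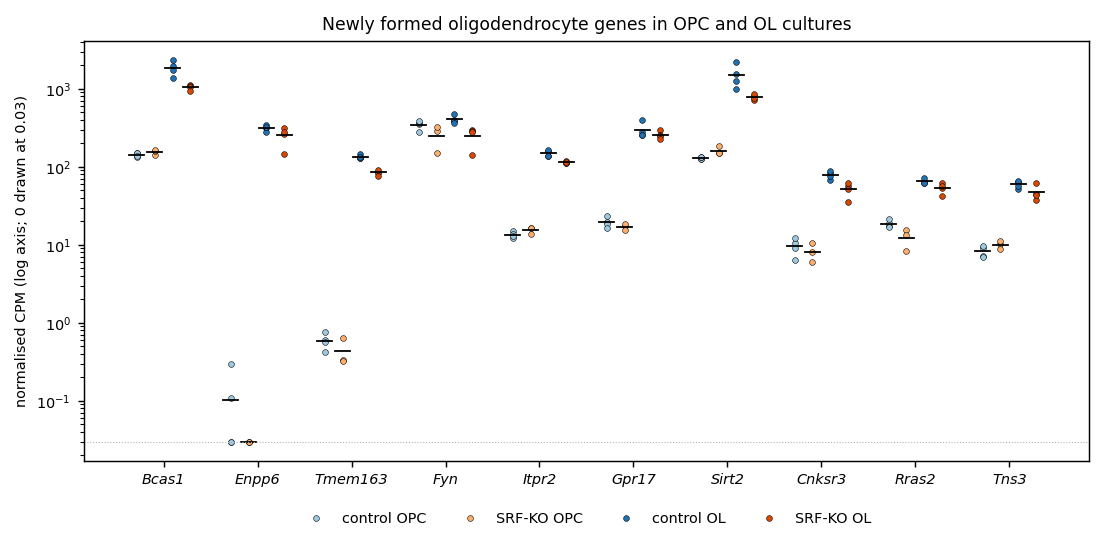
Normalised CPM, scaled within each stage, on a log axis for the 10 genes in each of the 15 libraries (points, coloured by group; black bars are group means; libraries at 0 are drawn at 0.03). On this scale all genes but Fyn are separated between control OPCs and control OLs, and within the OL cultures the SRF-KO mean lies under the control mean for every gene, while OPC points of both genotypes intermingle for most genes.

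In the OL cultures the SRF-KO mean was lower than the control mean for all 10 genes on the normalised CPM scale, from 52.5% of control for Sirt2 to 86.9% for Gpr17. None of the 10 passed edgeR's quasi-likelihood test at an adjusted p of 0.05, where 0.23% of all 15193 genes tested were called lower. At an unadjusted p under 0.05, 6 of the 10 were lower, against 5.73% of all genes. With libraries scaled to their totals these counts were 3 of 10 and 1.69%. On the normalised CPM scale every SRF-KO library lay under every control library in 7 of the 10, against 3.9% of all genes. With libraries scaled to their totals the groups of Itpr2, Cnksr3 and Rras2 overlapped. Without SRF-KO OL replicate 4, edgeR called 6 of the 10 lower (Bcas1, Tmem163, Fyn, Sirt2, Cnksr3 and Tns3), against 2.62% of all genes. On the normalised CPM scale 8 of 10 were then separated, against 7.56%. With all libraries DESeq2 called 4 (Bcas1, Tmem163, Itpr2 and Sirt2), against 1.31% of all genes. The median log2 difference of the 10 genes was -0.49, and -0.50 without SRF-KO OL replicate 4, with medians over all genes of 0.024 and -0.0049. The 10 genes, and the lists below, were chosen with earlier results of these data known. Their shares set against all genes are therefore a description and not an independent contrast.

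Sirt2 and Bcas1, both abundant and tied to myelin itself, had the largest differences. Sirt2, an NAD-dependent deacetylase that acts on tubulin and is enriched in myelin, had 2202, 1543, 1266 and 994 CPM in control OLs and 724, 810, 762 and 856 CPM in SRF-KO OLs. The groups did not overlap, and the controls spread widely, with replicate 1 far above replicate 4. The log2 difference was -0.93 (SE 0.23, edgeR adjusted p = 0.17), and it was -0.99 without SRF-KO OL replicate 4 (adjusted p = 0.028). Bcas1, a marker of early myelinating oligodendrocytes, had 2356, 1989, 1727 and 1365 CPM in controls and 1134, 1081, 1056 and 935 CPM in SRF-KO OLs. Again every knockout library was under every control, and the coefficient of variation was 22.5% in controls and 8.03% in SRF-KO OLs. The log2 difference was -0.82 (SE 0.19, edgeR adjusted p = 0.15). Bcas1 was called lower without SRF-KO OL replicate 4 (-0.79, adjusted p = 0.029) and without control OL replicate 4 (-0.95, adjusted p = 0.0498).

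Among the membrane proteins and the secretory enzyme, Tmem163 had the smallest p of the 10 genes. Tmem163, a zinc transporter, had 145.0, 131.0, 129.9 and 132.1 CPM in controls and 87.2, 84.5, 76.9 and 91.5 CPM in SRF-KO OLs. Both groups were tight and well apart. Its log2 difference was -0.66 (SE 0.13, edgeR adjusted p = 0.064), -0.72 without SRF-KO OL replicate 4 (adjusted p = 0.0043) and -0.67 by DESeq2 (adjusted p = 2.56e-07). Itpr2, an inositol trisphosphate receptor that releases calcium from the endoplasmic reticulum, had 158.9, 136.9, 139.1 and 163.4 CPM in controls and 118.5, 113.6, 113.7 and 115.8 CPM in SRF-KO OLs. The knockout libraries varied little, by 1.98% of their mean, and all lay under the controls on this scale, though not with library totals. The log2 difference of Itpr2 was -0.37 (SE 0.13, edgeR adjusted p = 0.29), with an adjusted p of 0.0505 without SRF-KO OL replicate 4 and of 0.037 by DESeq2.

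Enpp6 and Gpr17 showed overlapping groups. Enpp6 had 340.9, 315.7, 281.3 and 320.5 CPM in controls and 261.6, 317.0, 284.0 and 148.3 CPM in SRF-KO OLs, so that replicate 4 alone lay far below the rest. The Enpp6 log2 difference was -0.32 (SE 0.21, edgeR adjusted p = 0.63), and -0.15 without that library. Gpr17, which restrains the step to mature oligodendrocytes, had 398.6, 278.1, 257.3 and 253.1 CPM in controls and 301.1, 254.1, 249.9 and 226.2 CPM in SRF-KO OLs. Its log2 difference was -0.20 (SE 0.18, edgeR adjusted p = 0.74), and it was -0.028 without control OL replicate 1 and 0.035 when libraries were scaled to their totals. Gpr17 lies within Lims2 on the opposite strand, and Lims2 had 70.0 CPM in SRF-KO OL replicate 4 against 32.9 to 43.5 in the other 7 OL libraries. Reads of the pair cannot be told apart where they overlap, because the libraries carry no strand.

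The remaining genes act in kinase, small GTPase and adhesion signalling. Fyn, a Src-family kinase that acts downstream of axon contact in oligodendrocytes, had 474.2, 386.0, 399.6 and 360.2 CPM in controls and 298.7, 287.3, 278.9 and 143.9 CPM in SRF-KO OLs. The groups did not overlap, and replicate 4 of the knockout was again the lowest. The Fyn log2 difference was -0.68 (SE 0.22, edgeR adjusted p = 0.27), and it was smaller but called without that library (-0.51, adjusted p = 0.035). On the authors' TPM scale the Fyn mean without that library was not lower, at 12.5 TPM against 12.4 in controls. Cnksr3, a scaffold protein of kinase signalling, had 82.5, 68.8, 76.2 and 88.2 CPM in controls and 57.2, 61.9, 52.7 and 35.8 CPM in SRF-KO OLs. It also had separate groups on this scale, though not with library totals. Its log2 difference of -0.60 (SE 0.17, edgeR adjusted p = 0.21) became -0.48 without the library (adjusted p = 0.036). The Cnksr3 mean on the TPM scale without that library was 6.50 against 6.35 in controls, again not lower.

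Rras2, a small GTPase of the Ras family, had 66.2, 71.0, 62.3 and 62.3 CPM in controls and 52.9, 62.1, 56.6 and 42.6 CPM in SRF-KO OLs. The groups of Rras2 touched but did not overlap on this scale, and overlapped with library totals. Its log2 difference of -0.29 (SE 0.14, edgeR adjusted p = 0.48) was not called with or without SRF-KO OL replicate 4. Tns3, a tensin that links integrins to actin at adhesions, had 63.1, 52.3, 65.8 and 57.1 CPM in controls and 44.3, 38.1, 43.6 and 62.2 CPM in SRF-KO OLs. Here replicate 4 was the knockout library that lay among the controls. The Tns3 log2 difference was -0.34 (SE 0.17, edgeR adjusted p = 0.46), and -0.53 without that library (adjusted p = 0.024).

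**Figure D2:**
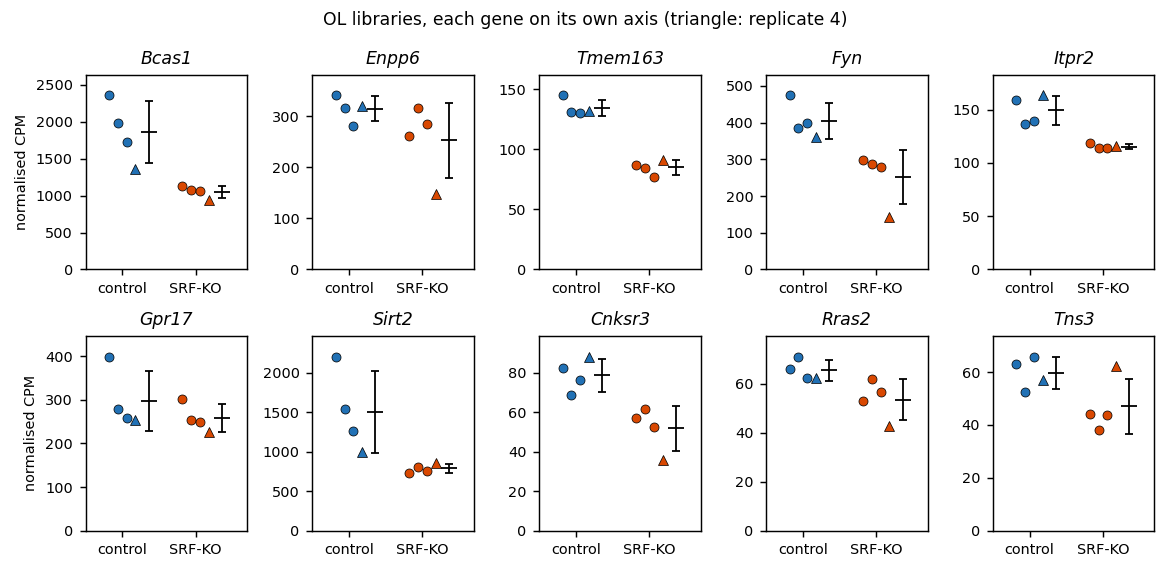
Normalised CPM of each gene in the 8 OL libraries, each panel on its own axis from 0 (circles are replicates 1 to 3, triangles replicate 4, blue control, orange SRF-KO; the black bar and whiskers are the mean ± SD of 4). Sirt2 and Bcas1 show a wide spread among controls, Tmem163 and Itpr2 narrow and separate groups, and the SRF-KO triangle is far below the other knockout points for Enpp6 and Fyn but above them for Tns3.

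Individual libraries contributed unevenly to these values. Control OL replicate 1 was the highest control for 6 of the 10 genes, and SRF-KO OL replicate 4 was the lowest knockout library for 6 and the highest for 3 (Tmem163, Sirt2 and Tns3). The scale also mattered, for called genes as well. Scaling libraries to their totals moved the median of all genes in the OL comparison to 0.24, and that of the 10 genes to -0.28, with 9 of 10 still negative. On the authors' TPM scale the mean was lower in SRF-KO OLs for 7 of the 10 genes and higher for 3: Enpp6 (6.48 against 6.45 TPM), Gpr17 (105.9 against 96.4) and Rras2 (2.05 against 2.01). Without SRF-KO OL replicate 4 the TPM means were lower for 5 and higher for 5, with Fyn and Cnksr3 added to the higher side although edgeR called both lower in that setting. The mean TPM of Sirt2 was 301 ± 57 in SRF-KO OLs against 450 ± 75 in controls (SD, n = 4 each), and that of Bcas1 was 280 ± 78 against 368 ± 17.

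In the OPC cultures no gene of the 10 was called by edgeR or by DESeq2, where edgeR called 0.0452% of all 13271 genes tested lower and 0.0226% higher, and DESeq2 0.475% and 0.482%. Enpp6 and Tmem163 did not pass the low-count filter, since Tmem163 had 8, 9, 7 and 5 counts in controls and 3, 5 and 6 in SRF-KO OPCs. Of the 8 tested, 4 log2 differences were negative and 4 positive, with a median of -0.043, against -0.0013 over all genes. At an unadjusted p under 0.05, 2 of the 8 were lower (6.33% of all genes) and 1 higher (5.57%). Without SRF-KO OPC replicate 2 none was lower (4.6%) and 1 higher (4.04%).

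Sirt2 and Rras2 were the only members of the 8 with separate groups in OPCs, in opposite directions, where 5.96% of all genes were separated upward and 6.25% downward. Without SRF-KO OPC replicate 2, 3 of the 8 were separated upward (9.34% of all genes) and 1 downward (10.0%). Sirt2 had 127.8, 126.6, 132.5 and 134.2 CPM in control OPCs and 150.8, 183.7 and 151.8 CPM in SRF-KO OPCs. It was thus higher in every knockout library, the reverse of its order in OLs, with a log2 difference of 0.32 (SE 0.09, edgeR adjusted p = 0.26). Rras2 had 17.4, 18.9, 21.6 and 16.8 CPM in controls and 15.4, 8.38 and 13.5 CPM in SRF-KO OPCs. Its log2 difference was -0.60 (SE 0.21, edgeR adjusted p = 0.32), and -0.37 without SRF-KO OPC replicate 2, the lowest of the 3.

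Fyn was also lowest in SRF-KO OPC replicate 2. It had 359.6, 280.7, 366.9 and 387.7 CPM in control OPCs and 285.3, 151.0 and 319.7 CPM in SRF-KO OPCs. The Fyn log2 difference of -0.47 (SE 0.21, edgeR adjusted p = 0.41) became -0.20 without SRF-KO OPC replicate 2. The groups of Bcas1 overlapped, with 134.0 to 150.7 CPM in controls and 142.1, 158.8 and 162.5 CPM in SRF-KO OPCs. The Bcas1 log2 difference was 0.11 (SE 0.09, edgeR adjusted p = 0.64). The other 4 tested genes had overlapping groups, with log2 differences of 0.19 for Itpr2, -0.20 for Gpr17, -0.23 for Cnksr3 and 0.28 for Tns3 (edgeR adjusted p from 0.59 to 0.74).

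**Figure D3:**
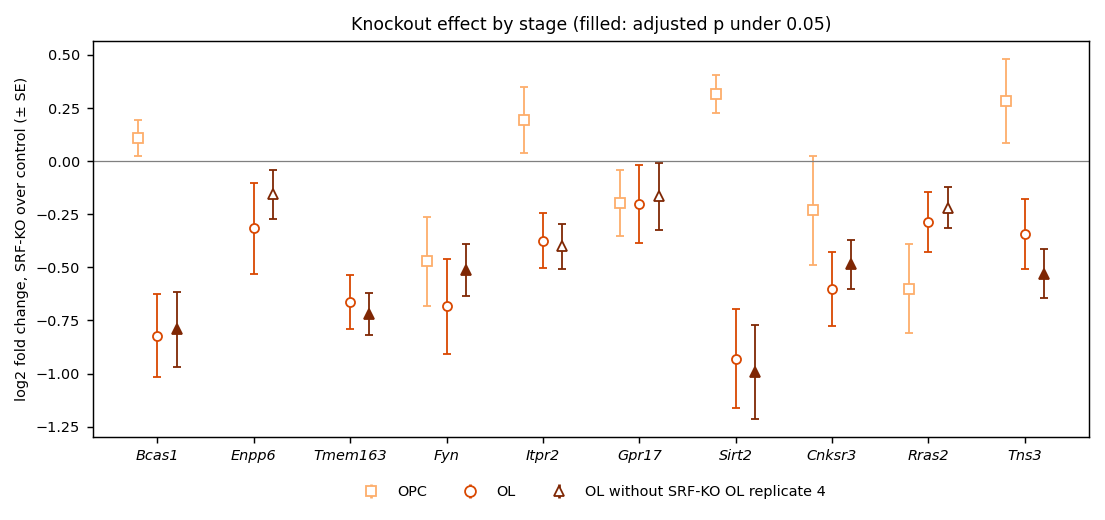
Log2 fold change of SRF-KO over control with its SE from edgeR for each gene, in OPCs (squares; Enpp6 and Tmem163 were not tested), in OLs (circles) and in OLs without SRF-KO OL replicate 4 (triangles); filled symbols have an adjusted p under 0.05. All OL points are below 0, 6 triangles are filled, and Sirt2 lies on opposite sides of 0 in the 2 stages.

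Whether the knockout effect differed between the OPC and OL cultures was tested as an interaction in 1 model of all 15 libraries. Stage, virus, day of infection and way of counting differ together between these cultures. A difference in effect therefore cannot be assigned to stage. None of the 10 genes passed edgeR's test, where 0.0682% of all 16135 genes tested were called with a lower effect in OLs; 4 had an unadjusted p under 0.05 (Sirt2, Bcas1, Itpr2 and Tns3), all with a lower effect in OLs, against 4.65% of all genes. DESeq2 called 3 of the 10, against 0.62% of all genes. The effect on Sirt2 was lower in OLs by 1.26 log2 units (-1.26, SE 0.26, edgeR adjusted p = 0.066) and that on Bcas1 by 0.95 (-0.95, SE 0.21, adjusted p = 0.092). Without SRF-KO OL replicate 4 both were called (Sirt2 -1.30, adjusted p = 0.027; Bcas1 -0.89, adjusted p = 0.038; 0.399% of all genes), as they were without control OL replicate 4. Itpr2 differed by -0.58 (SE 0.17, edgeR adjusted p = 0.23) and was called by DESeq2 (adjusted p = 0.0498). Tns3 differed by -0.64 (SE 0.23, edgeR adjusted p = 0.37). Rras2 had the opposite sign, 0.31 (SE 0.23, edgeR adjusted p = 0.74; 0.091 without SRF-KO OPC replicate 2), while for Gpr17 the difference was -0.019 (SE 0.23). For Enpp6 and Tmem163 this test has little content, because their OPC counts are at or near 0. The measured reduction of Srf itself also differed between the stages, by 3.68 log2 units (SE 0.46, edgeR adjusted p = 0.0047). The way of counting and the level of the overlapping Gm26904 also differ between the stages, so this difference is uncertain to that extent.

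A further list of 25 genes of newly formed oligodendrocytes, 24 of which were matched, was read in the same way. In OLs 20 of the 24 had a negative log2 difference, with a median of -0.41, and 10 were separated downward, against 3.9% of all genes. None was called by edgeR (0.23% of all genes), 13 were lower at an unadjusted p under 0.05 (5.73%), and 6 were called lower by DESeq2 (1.31%). Without SRF-KO OL replicate 4 edgeR called 7, all lower (2.62%). The 4 with the smallest p were Kif19a, a kinesin (-0.80, SE 0.16, edgeR adjusted p = 0.068), Frmd4a (-0.58, SE 0.13, adjusted p = 0.11), Tcf7l2, a transcription factor of the Wnt pathway that is transiently expressed at this step (-0.58, SE 0.13, adjusted p = 0.12), and Nfasc, which encodes the adhesion protein neurofascin (-0.49, SE 0.14, adjusted p = 0.20). Bmp4 and Neu4, both also known from this stage, were at 109% and 96.7% of control. In OPCs 21 were tested, none was called by edgeR or DESeq2, and the median was -0.048. At an unadjusted edgeR p under 0.05, 1 was lower (6.33% of all genes) and 1 higher (5.57%). In the interaction the median of the 24 was -0.47, against -0.30 for the 10 genes. Both medians include genes with OPC counts at or near 0, Enpp6 and Tmem163 among the 10 and Bmp4 and Kif19a among the 24. None was called by edgeR, and 9 had a lower effect at an unadjusted p under 0.05 (4.65%). DESeq2 called 4 (0.62%), as did edgeR without SRF-KO OL replicate 4 (0.399%): Tcf7l2, Tmem108, Frmd4a and Pik3r3.

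Between control OPCs and control OLs edgeR called 22 of these 24 genes higher (Neu4, Bmp4, Tcf7l2, Nfasc, Cyfip2, Mycl, Slc12a2, Ust, Mical3, Kif19a, Tmem108, Rap2a, Lims2, Mpzl1, Frmd4a, Sema4d, Chn2, Gp1bb, Dynll2, Strn, Sema5a and Pik3r3) and Cemip2 lower. The background of 42.5% higher given above applies, as does the confounding of stage with virus and counting.

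Markers of other states and cell types also differed in level between the genotypes in the OL cultures, and their part in the results was not tested. In bulk RNA, fewer cells of a type and less RNA per cell cannot be told apart. Mbp, the major myelin basic protein gene, had 13023, 9896, 8892 and 6413 CPM in control OLs and 4751, 6500, 5733 and 6632 CPM in SRF-KO OLs. The groups overlapped (-0.69, SE 0.24, edgeR adjusted p = 0.30), and replicate 1 was the highest control, as for Sirt2 and Bcas1. Of 14 myelin genes tested, 11 had negative log2 differences, with a median of -0.43. At an unadjusted edgeR p under 0.05, 7 of the 14 were lower (5.73% of all genes) and 2 higher (887 of 15193 genes). On the normalised CPM scale 6 of the 14 were separated downward (3.9%), and Mal upward. Opalin alone was called (-1.37, adjusted p = 0.023 by edgeR), where 0.23% of all genes were called lower. Without SRF-KO OL replicate 4 edgeR called 3 lower (Opalin, Cldn11 and Myrf; 2.62% of all genes) and 2 higher (Mal and Trf; 1.5%), and with all libraries DESeq2 called 5 lower (1.31%) and Mal higher (0.658%). Mal, a proteolipid of compact myelin, was at 163% of the control mean and Trf, which encodes transferrin, at 133%. The summed level of the 15 myelin genes was 21596 to 40476 CPM in controls and 14982 to 21565 in SRF-KO OLs, against 3796 to 6287 and 2657 to 3110 CPM for the 10 newly formed genes. Pdgfra, the receptor that marks precursors, had 50.6, 52.2, 49.4 and 53.4 CPM in controls and 74.4, 73.2, 66.4 and 54.5 CPM in SRF-KO OLs, higher in all 4 (0.39, SE 0.13, edgeR adjusted p = 0.30). The 12 OPC genes had a median log2 difference of 0.024 in OLs. At an unadjusted edgeR p under 0.05, 3 of the 12 were lower (5.73% of all genes) and 4 higher (887 of 15193 genes). On the normalised CPM scale 2 were separated downward (3.9%), and Pdgfra, Ptprz1 and Tmem100 upward. Matn4 alone was called among the 12 (-0.85, edgeR adjusted p = 0.025, where 0.23% of all genes were called lower). Without SRF-KO OL replicate 4 edgeR called 2 of the 12 lower (2.62% of all genes) and 1 higher (1.5%).

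Astrocyte transcripts were abundant in the cultures labelled OL. Gfap, the astrocyte intermediate filament gene, had 28228, 17129, 17337 and 12256 CPM in controls and 8749, 8977, 7442 and 4778 CPM in SRF-KO OLs. The summed level of 8 astrocyte genes was 17100 to 34548 CPM in controls and 8864 to 14038 in SRF-KO OLs. Gfap made up most of that sum in every OL library. It was also the only 1 of the 8 with separate groups (3.9% of all genes were separated downward). Without SRF-KO OL replicate 4, 2 of the 8 were separated downward (7.56%). Of the 8, 7 had negative log2 differences, with a median of -0.16 that was -0.0081 without SRF-KO OL replicate 4 and 0.062 with library totals. None of the 8 was called by edgeR (0.23% of all genes called lower), and 1 was called lower without SRF-KO OL replicate 4 (2.62%). By edgeR 1 was lower at an unadjusted p under 0.05 (5.73%), and DESeq2 called 1 lower (1.31%). All 8 were above 0 in every OL library. The edgeR interaction had a median of -0.55 for the 8 astrocyte genes, -0.56 for the 14 myelin genes and 0.12 for the 12 OPC genes. Of these, 4, 6 and 0 had a lower effect in OLs at an unadjusted edgeR p under 0.05 (4.65% of all genes). In OPCs, where Sirt2 was higher in every knockout library, the astrocyte sum was 1155 to 1266 CPM in controls and 1412 to 1520 in SRF-KO OPCs, with 5 of the 8 genes separated upward (5.96% of all genes), and the myelin sum was 669 to 721 and 742 to 827 CPM. Markers of microglia (8.17 to 12.8 CPM in control and 9.05 to 13.0 in SRF-KO OLs), neurons (6.14 to 9.64 and 8.89 to 15.7), endothelium (0.615 to 1.49 and 0.638 to 2.83) and fibroblasts and mural cells (3.52 to 5.17 and 3.19 to 5.25) were low, and Cldn5 of endothelium was at 0 in every library.

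**Figure D4:**
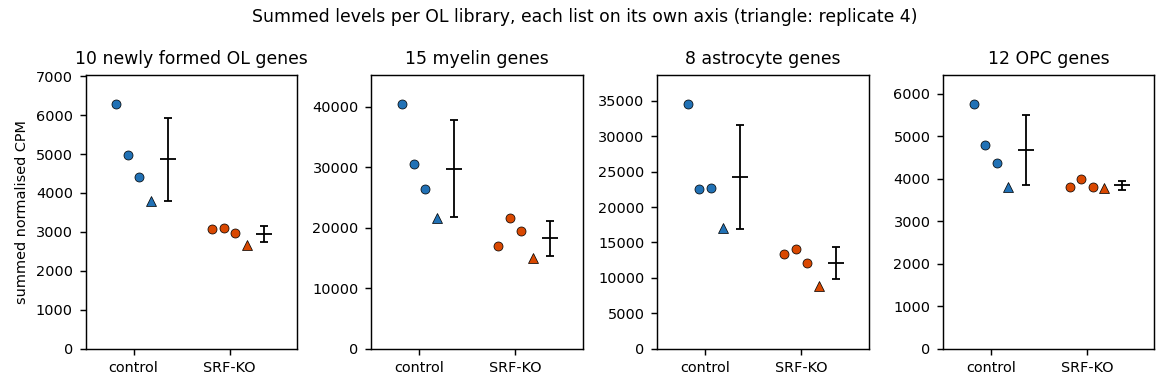
Summed normalised CPM per OL library for the 10 newly formed oligodendrocyte genes and the myelin, astrocyte and OPC marker lists, each on its own axis from 0 (circles are replicates 1 to 3, triangles replicate 4; bars are mean ± SD of 4). Control replicate 1 is the highest and control replicate 4 the lowest control in all 4 panels, and SRF-KO libraries lie under all controls for the newly formed and astrocyte lists and, narrowly, for the myelin list.

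The genes whose log2 CPM most closely followed the mean of the 10 genes over the 8 OL libraries were Gfap (Pearson's r = 0.987, Spearman's rho = 0.976), Aatk (0.985 and 0.976), Matn4 (0.978 and 0.976), Ephb1 (0.977 and 0.929) and Kif19a (0.976 and 0.857), out of 10489 genes ranked. These values describe the 8 libraries, which share the contrast between genotypes. Within the list, Bcas1 was closest to the mean of the other 9 genes (r = 0.949), Fyn (0.883), Tmem163 (0.866), Cnksr3 (0.852), Itpr2 (0.843), Sirt2 (0.832) and Rras2 (0.811) followed, and Enpp6 (0.667), Gpr17 (0.659) and Tns3 (0.364) followed it least.

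All 10 genes are annotated as protein-coding in GENCODE M21 (GRCm38). Sirt2 lies at chr7:28766735-28788661 on the plus strand and Bcas1 at chr2:170346991-170427845 on the minus strand. Tmem163 lies at chr1:127486546-127679548 (minus) and Itpr2 at chr6:146108299-146502223 (minus). Enpp6 lies at chr8:46986887-47096762 (plus), Gpr17 at chr18:31942997-31949636 (minus) and Fyn at chr10:39368855-39565381 (plus). Cnksr3 lies at chr10:7119063-7212237 (minus), Rras2 at chr7:114046782-114117781 (minus) and Tns3 at chr11:8431652-8664535 (minus). Exons make up 78.2% of the span of Gpr17, 23.0% of that of Sirt2 and 2.22 to 5.84% of those of the other 8. Most of the span of these 8 genes is therefore intronic. The listed lengths of the OL tables include introns, though for some genes, as for Bcas1, they cover only part of the span. Besides Gpr17 with Lims2, Tmem163 overlaps Mgat5, Sirt2 overlaps Nfkbib, Bcas1, Fyn, Enpp6 and Rras2 overlap antisense transcripts, Fyn a pseudogene, and Itpr2 a pseudogene and a pair of unclassified transcripts, so their counts are uncertain to the extent that reads fall in the shared parts.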

How the data were processed

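RNA from 15 primary mouse cultures was made into unstranded polyA libraries by the Smart-seq2 protocol and sequenced as single 63-base reads, per the labels' protocols. The submitters' processing notes list bcl2fastq, STAR and RSEM with no version, and the builds GRCm38 and Rnor_6.0 with no sample assigned to either. Every gene ID in the tables is a mouse ID. The authors deposited RSEM gene tables holding expected counts, TPM and listed lengths. Groups follow the sample titles; the design text of the series names another cell type and Cre driver, absent from the sample labels. The treatment tag of the SRF-KO OLs names the Cre lentivirus but also ends in the word control.

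The rounded expected counts entered edgeR 4.0.16 (filterByExpr, TMM normalisation, quasi-likelihood F-test) in R 4.3.3, within each stage and, for the interaction, over all 15 libraries. CPM are scaled within a stage, except between stages. P-values were adjusted by Benjamini and Hochberg over all genes tested, with a threshold of 0.05. The SE is the log2 difference divided by the root of F. The alternatives were DESeq2 1.42.0 as the test, DESeq2 size factors, library totals, no low-count filter, a replicate block, and leaving out each library. The test script recovered seeded changes in simulated data. The 10 genes and all lists were chosen with earlier results of these data known. Named genes are all 10, Srf, Mbp and Pdgfra, the 4 other newly formed genes with the smallest p in OLs and any called, and the 5 most alike; Bmp4, Neu4, the myelin genes beside Mbp, Matn4 as a marker, Lims2 and Gm26904 were named after their values were seen. No 2 libraries of a group agreed within sampling noise. Totals per library, given with the results, set the precision, and the floor of 3 counts covers counting error only.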

Additional observations from a re-analysis of the deposited data

Results flagged for a closer look

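Of 39 groups of 4 libraries examined, 2 held a library far from the others, and chance flags about 1 in 20. Tmem163 in control OL replicate 1 had 145 CPM, with the other controls between 129.9 and 132.1. This flag depends on the scaling. With library totals replicate 1 lay within the range of the other controls, and control OL replicate 4 was the highest. Fyn in SRF-KO OL replicate 4 had 143.9 CPM, with the other knockout libraries between 278.9 and 298.7. The knockout effect on Srf differed between stages: it was smaller in OLs by 3.68 log2 units, with the limits of counting and of the overlap with Gm26904 given above.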

How the results depend on the processing

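The 10 genes kept a negative median difference in OLs under every alternative run, from -0.55 to -0.45 when 1 library was left out and -0.28 with library totals, while the number called lower ran from 0 to 6 when 1 library was left out and was 4 by DESeq2. In OPCs the median, near 0, ran from -0.091 to 0.039 without 1 library. Without a low-count filter it was -0.22, over 10 genes in place of 8. The genes added were Enpp6 (5 counts pooled over control OPCs, 0 over SRF-KO OPCs) and Tmem163 (29 and 14). Between stages in controls the median was 3.81 with DESeq2 size factors or DESeq2, 3.38 with library totals, 3.68 without the filter, and 3.61 to 3.80 without 1 library. For the interaction the median was -0.088 with library totals and -0.44 to -0.12 without 1 library, and 1 gene was called without the filter, 3 by DESeq2 and 0 to 2 without 1 library. Directions turned with library totals for Gpr17 in OLs (0.035), Srf between stages (-0.026), and Fyn (0.0087) and Gpr17 (0.21) in the interaction; without 1 library the interaction ran from -0.12 to 0.15 for Gpr17 and from -0.41 to 0.10 for Tmem163. The cause of these turned directions was not tested.

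Replicate numbers did not pair the libraries: same-numbered control and knockout libraries had correlated deviations of -0.28 to 0.049. With a replicate block the median was -0.0097 in OPCs and 3.71 between stages, the interaction of Gpr17 was 0.066, and 0 of the 10 genes were called in OLs; the Srf call was lost in OLs (adjusted p = 0.19) and in the interaction (adjusted p = 0.087). Depth limited Enpp6 and Tmem163 in OPCs.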
